A study of Mus musculus with 21 samples.

Results

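The transient 2-cell and 4-cell transcripts are the transcripts of the merged long-read catalogue that were present in 2-cell embryos and scarce before the 2-cell stage and in the blastocyst. A transcript was taken when its abundance was at least 5 TPM (the share of all transcripts in a library, scaled for transcript length) in both 2-cell libraries and under 1 TPM in both oocyte, both 1-cell and both blastocyst libraries. The rule found 186 of 22612 merged transcripts, at 174 loci. Of these, 132 were spliced and 54 had a single exon. They were set beside 386 sustained transcripts, which met the same conditions at the oocyte, 1-cell and 2-cell stages but had at least 5 TPM in both blastocyst libraries.

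The study combined long-read and short-read sequencing of amplified cDNA from mouse gametes and preimplantation embryos. Each of 7 stages had 2 short-read libraries, and 1 long-read pool of its batches. Sperm came from DBA/2J males (the collection text writes DBA/2N) and MII oocytes from superovulated C57/BL6J females aged 3 to 5 weeks, and all embryos were the F1 of this cross. Oocytes were taken 20 h after human chorionic gonadotropin (hCG), and embryos were cultured and lysed at 24 to 26 h (1-cell), 46 to 48 h (2-cell), 54 to 58 h (4-cell), 68 to 70 h (8-cell) and 94 to 96 h (blastocyst). The labels give no treatment or genetic change. Each library held many pooled embryos, so that fewer RNA-bearing cells and less RNA per cell cannot be told apart. The study's methods describe 2 batches of pooled embryos per stage with short reads from each, so the replicates are separate pools, of which each is a single sample.

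A mouse embryo starts with RNA that the oocyte stored, and its own genome is switched on in a minor wave in the 1-cell embryo and a major wave at the 2-cell stage. A part of the first transcripts is made for a short time only. The best known are the genes that mark totipotent 2-cell-like cells, such as the Zscan4 and Tcstv families, together with transcripts that start in endogenous retroviral repeats, and the homeobox factors of the Obox family and the nuclear receptor NR5A2 are among the activators of this period. Such RNA is then removed while the genes for the first lineages come up.

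The sequence before the start could be read for members that began within 300 bases of a start in the RefSeq promoter set (GRCm38.p6), which was the case for 52 of the 186. The 250 bases before the start are shown for 4 of them, 1600025M17Rik and B020004C17Rik because they had the largest and the sixth largest fall from 4-cell to 8-cell among the called members, and Cited1 and Defb42 because their windows held the letters of the NR5A2 motif. Capitals mark a match on either strand to the NR5A2 letters CAAGGTCA or to TATAAA, the letters of a TATA box, and the sequences run 5′ to 3′ from RefSeq.
1600025M17Rik (chrX:56317358-56317607, plus strand): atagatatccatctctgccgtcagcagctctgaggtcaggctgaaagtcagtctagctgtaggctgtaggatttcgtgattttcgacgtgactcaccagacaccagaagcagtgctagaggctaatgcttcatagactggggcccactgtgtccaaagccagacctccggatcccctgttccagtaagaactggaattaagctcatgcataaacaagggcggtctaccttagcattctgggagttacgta
B020004C17Rik (chr14:57014884-57015133, plus strand): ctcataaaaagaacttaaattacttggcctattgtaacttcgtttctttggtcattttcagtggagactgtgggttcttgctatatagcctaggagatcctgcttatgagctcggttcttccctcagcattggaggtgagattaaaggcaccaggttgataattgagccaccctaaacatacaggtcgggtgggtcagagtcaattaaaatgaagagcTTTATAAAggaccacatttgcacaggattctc
Cited1 (chrX:102250777-102251026, minus strand): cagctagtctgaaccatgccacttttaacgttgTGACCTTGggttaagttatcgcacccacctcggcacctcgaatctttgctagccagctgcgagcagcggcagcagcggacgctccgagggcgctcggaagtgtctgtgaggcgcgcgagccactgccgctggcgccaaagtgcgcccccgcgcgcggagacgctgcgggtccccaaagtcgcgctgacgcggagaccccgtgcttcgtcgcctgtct
Defb42 (chr14:63046741-63046990, plus strand): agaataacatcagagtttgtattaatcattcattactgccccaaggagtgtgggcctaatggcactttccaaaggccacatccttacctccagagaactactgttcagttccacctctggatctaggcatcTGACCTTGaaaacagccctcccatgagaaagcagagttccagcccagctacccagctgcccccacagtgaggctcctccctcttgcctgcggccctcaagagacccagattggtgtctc
The TATA letters of B020004C17Rik began 32 bases before the start and read as a match on both strands, which overlap. The NR5A2 letters began 217 bases before the start of Cited1 and 119 bases before that of Defb42. These windows end at the RefSeq start, which lay 150 bases from the start of the Cited1 member, 35 from that of Defb42, 13 from that of 1600025M17Rik and 0 from that of B020004C17Rik. In windows that also take 50 bases after the start, NR5A2 letters were in 2 of 52 members (3.85%), 2 of 197 sustained transcripts with a window (1.02%) and 1.56% of 32817 RefSeq windows. TATA letters were in 4 members (7.69%, against 13.6% of all windows), and the letters TAATCC of OBOX factors in 4 members (7.69%, against 7.06%). The motif of DUX was in 0 members and 0.0335% of all windows. Because most members have no window, these shares cannot stand for the members as a whole. No 2 of the 52 windows aligned with each other over 100 bases at 80% identity.

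The 2-cell libraries, on which the rule rests, stood apart from each other. The median SD of log2(TPM + 1) between replicates over members was 0.91 at 2-cell, against 0.29 at 4-cell and 0.27 at 8-cell, and over all 20250 tested transcripts it was 1.03, 0.22 and 0.28. Over all tested transcripts it was 0.47 in oocytes, 0.38 at 1-cell and 0.62 in blastocysts, where the rule set its upper limit. Of the members, 136 were higher in 2-cell replicate 2 and 50 in replicate 1. The values differed by over 5-fold for 50 members and by at most 2-fold for 72. A rule on replicate 2 alone would have taken 569 transcripts and a rule on replicate 1 alone 236. Markers of other stages moved with this difference. The summed TPM of 8 oocyte genes was 116 in 2-cell replicate 1 and 1293 in replicate 2, beside 158 and 168 at 4-cell, and that of 6 genes of 2-cell embryos was 26.2 and 447. By the sum of these 6 genes 2-cell replicate 1 did not stand out as 2-cell. They summed to 46.8 and 39.7 TPM at 1-cell, 20.3 and 24.5 TPM at 4-cell and 23.8 and 18.8 TPM at 8-cell. The sums were 33.3 and 4.92 TPM in oocytes and 16.9 and 0.301 TPM in blastocysts. Tcstv1 alone gave 38.3 and 22.5 TPM at 1-cell and 29.7 TPM in oocyte replicate 1, against 3.63 TPM in 2-cell replicate 1. Single genes differed, as Usp17lc had 5.96 TPM in 2-cell replicate 1 and 0.187 and 0.241 TPM at 1-cell. Zfp352 had 4.17 TPM in 2-cell replicate 1 and 2.19 and 11.1 TPM at 1-cell. The part of the differences between the 2-cell replicates in the membership was not tested. The sperm and blastocyst markers followed the labels, with 8 sperm genes at 17536 and 21334 TPM in sperm and at most 46.4 TPM elsewhere, and 7 blastocyst genes at 10361 and 37536 TPM in blastocysts and at most 898 TPM elsewhere. None of 8 genes of cumulus cells had a merged transcript. The number of reads behind a TPM is not kept in these values and is unknown here.

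Together the members took 0.588% and 0.655% of all TPM in the 2 libraries of the 2-cell stage, 0.446% and 0.484% at 4-cell and 0.0901% and 0.0812% at 8-cell. The median member had 10.4 and 23.7 TPM at 2-cell, 14.3 and 18.2 TPM at 4-cell and 2.79 and 2.73 TPM at 8-cell. The median sustained transcript had 17.5 and 18.9 TPM at 2-cell, 34.9 and 32.3 TPM at 4-cell and 26.1 and 29.6 TPM at 8-cell. The values at oocyte, 1-cell, 2-cell and blastocyst were fixed by the rule and are given without a test. Among stages the rule did not use, 135 members (72.6%) had at least 5 TPM in both 4-cell libraries and 1 member was under 1 TPM in both. At 8-cell, 42 members (22.6%) still had at least 5 TPM in both libraries and 41 (22.0%) were under 1 TPM in both, against 359 and 0 of the 386 sustained transcripts and 43.0% and 26.5% of all transcripts. The sustained transcripts were chosen for at least 5 TPM at the next stage. The stage mean was highest at 2-cell for 116 members and at 4-cell for the other 70.

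**Figure D1:**
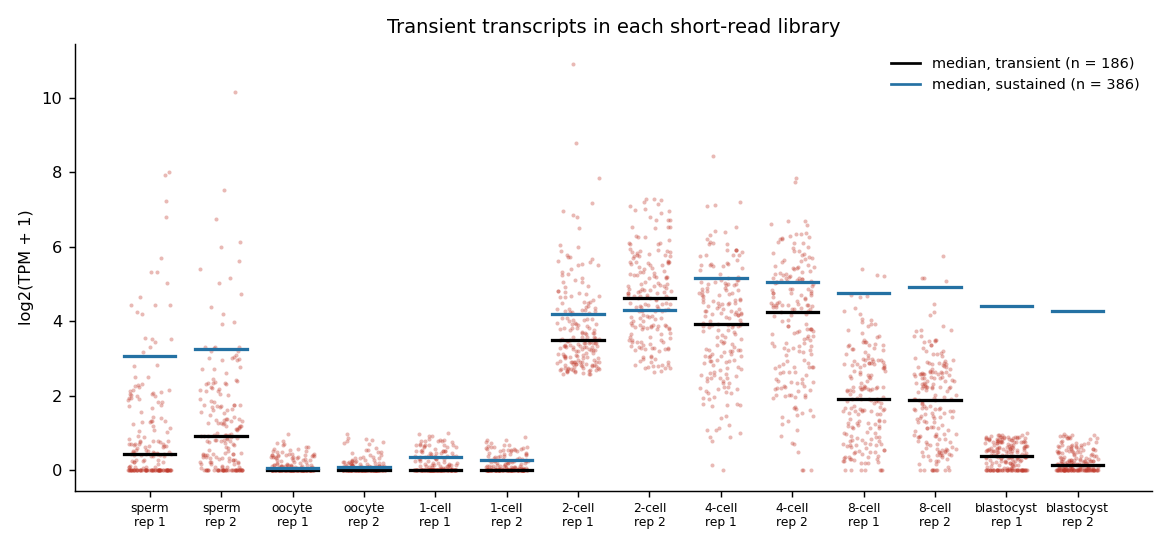
Abundance of the 186 transient transcripts (points, log2(TPM + 1)) in each of the 14 short-read libraries, with the median of the transient (black) and the 386 sustained transcripts (blue). The transient transcripts are high in 2-cell and 4-cell libraries and lower at 8-cell, whereas the sustained median stays up to the blastocyst.

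The members were divided between higher and lower values at 4-cell than at 2-cell, a difference that was not tested. Both 4-cell libraries were above both 2-cell libraries for 42 members and below for 71, against 27.9% and 21.9% of all tested transcripts without overlap in these directions. The first group included 1600025M17Rik with 18.0 and 90.4 TPM at 2-cell and 147 and 215 TPM at 4-cell. The second included Creld2, an endoplasmic reticulum chaperone, with 145 and 120.4 TPM at 2-cell and 31.0 and 25.3 TPM at 4-cell. Just inside the 2-cell threshold were an unannotated transcript (TCONS_00016453, 5.01 and 58.6 TPM) and Nrip3 (5.04 and 8.94 TPM), and just outside were 2310040G24Rik (4.99 and 9.54 TPM) and an unannotated transcript (TCONS_00015127, 4.98 and 33.5 TPM). At the other threshold, Samhd1 reached 0.999 TPM in a 1-cell library and AC162373.1 0.994 TPM in a blastocyst library, while Tbl2 and an unannotated transcript (TCONS_00000028) were left out at 1.01 and 1.02 TPM in a blastocyst library.

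From 4-cell to 8-cell, a contrast that the rule did not use, most members were called lower and none was called higher. In a limma fit to the log2(TPM + 1) of these 4 libraries, 113 of 186 members were lower at 8-cell at an adjusted p under 0.05 and 0 were higher, against 14.4% of 20250 tested transcripts called lower and 3.93% called higher. Of the sustained transcripts 39 of 386 were lower and 22 were higher. The median difference was -1.99 for members, -0.34 for sustained transcripts and -0.39 for all tested transcripts, so that members lay 1.60 below all transcripts. Quantile normalization moved the median of all transcripts by 0.40 and turned the split of calls from 78.5% lower to 51.7% lower. With it, 58 members were lower and 0 higher, against 1165 (5.75%) lower and 1088 higher of all 20250 tested transcripts. The member median was then 1.45 below that of all transcripts. In the 4 libraries, 164 members did not overlap between the stages with 8-cell lower, against 46.6% of tested transcripts, and 2 did with 8-cell higher, against 18.8%. The rule asked for under 1 TPM at the blastocyst, the next stage after 8-cell, so this contrast is not wholly free of the choice of members. The calls rest on few libraries. The counts at an unadjusted p below come without the share of all tested transcripts, so they cannot be read as particular to members. Leaving out any 1 of the 4 took away most calls, of members and of all tested transcripts. No member and no other transcript was called under a replicate block (149 members had an unadjusted p under 0.05 without the block and 139 with it, in either direction).

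**Figure D2:**
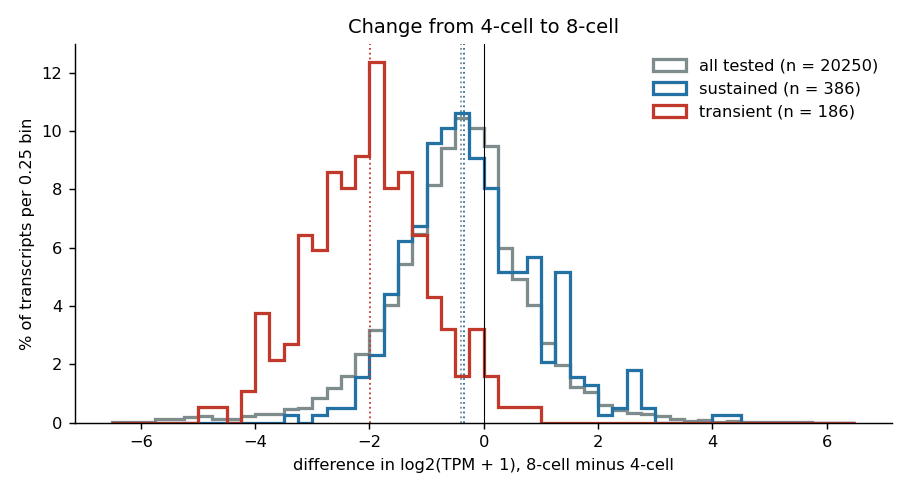
Distribution of the difference in log2(TPM + 1) between 8-cell and 4-cell (stage means) for transient (red), sustained (blue) and all tested transcripts (grey), as the percentage of each set per 0.25 bin, with dotted lines at the medians. The transient transcripts centre at -1.99, left of the other 2 sets.

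The largest falls among called members were those of 1600025M17Rik, Ak6, Phkg2, both Gpbp1 transcripts and B020004C17Rik. The transcript of 1600025M17Rik (TCONS_00021935, chrX:56317621-56320679 on mm10, 3 exons and 549 bases, an annotated intron chain) had 18.0 and 90.4 TPM at 2-cell, 147 and 215 TPM at 4-cell and 4.71 and 6.65 TPM at 8-cell. It fell by 4.76 ± 0.32 (SE) on the log2 scale from 4-cell to 8-cell, with an adjusted p of 0.0203 by limma. The transcript of Ak6 (TCONS_00005466), a nuclear adenylate kinase, had 9.78 and 42.4 TPM at 2-cell, 59.2 and 73.5 TPM at 4-cell and 2.65 and 1.30 TPM at 8-cell, and it fell by 4.53 ± 0.35 (limma adjusted p = 0.0203). Both had 4-cell values far above those at 8-cell in every pair of libraries. The transcripts of Gpbp1, a binder of GC-rich promoters, had 41.0 and 19.0 TPM (TCONS_00005982) and 18.6 and 23.4 TPM (TCONS_00005981) at 4-cell and under 1 TPM in both 8-cell libraries, and fell by 4.02 and 3.99. In the catalogue of the 4-cell stage alone TCONS_00005982 had 13.3 and 0.000509 TPM and TCONS_00005981 39.2 and 46.1 TPM, so how the reads of Gpbp1 divide between them depends on the catalogue. The Phkg2 transcript (TCONS_00018422, the catalytic subunit of phosphorylase kinase) had 16.0 and 34.6 TPM at 4-cell and 0.730 and 0 TPM at 8-cell and fell by 4.22 ± 0.55 (limma adjusted p = 0.0288). The B020004C17Rik transcript (TCONS_00006240) had 15.9 and 39.5 TPM at 2-cell, 52.8 and 55.5 TPM at 4-cell and 3.54 and 2.03 TPM at 8-cell, with a fall of 3.89 ± 0.32 (limma adjusted p = 0.0208). In the catalogues of single stages it had 117 and 272 TPM at 2-cell, 285 and 335 TPM at 4-cell and 2.90 and 2.18 TPM at 8-cell. In 2-cell embryos all 6 were higher in replicate 2 than in replicate 1.

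The most abundant members at 2-cell were often abundant in 1 library only. A transcript of Exoc3l2 (TCONS_00017886, chr7:19488940-19496760), which encodes an exocyst-related protein, had 1918 and 21.5 TPM at 2-cell, 344 and 229 TPM at 4-cell and 24.6 and 33.3 TPM at 8-cell. It thus differed 89.2-fold between the 2-cell replicates, while the 4-cell and 8-cell replicates were close, and it fell by 3.25 ± 0.32 from 4-cell to 8-cell (limma adjusted p = 0.0216). The transcripts of Gm4799 (445 and 12.9 TPM at 2-cell, a single-exon transcript near-identical in sequence to Taf10) and Mrps26 (229 and 48.0 TPM, a subunit of the mitochondrial ribosome) were likewise high in replicate 1. Gm4850, Gm11238 and an unannotated transcript (TCONS_00016743) were high in replicate 2, with 27.0 and 154, 14.6 and 157 and 15.7 and 151 TPM. Creld2 was alike in both replicates (145 and 120.4 TPM), and it fell from 31.0 and 25.3 TPM at 4-cell to 3.44 and 3.49 TPM at 8-cell, by 2.70 ± 0.26 (limma adjusted p = 0.0216). Gm11238 was already at 0.855 and 2.93 TPM at 4-cell and was not called between 4-cell and 8-cell, with an adjusted p of 0.916 by limma. Gm4799 and Mrps26 were not called either, with adjusted p of 0.145 and 0.0675 by limma.

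In structure the members departed from the annotation more often than sustained transcripts. Against GENCODE vM21, 32 members (17.2%) had exactly an annotated intron chain, compared with 56.2% of sustained and 36.3% of all transcripts. Another 17 (9.14%) were contained in an annotated transcript, 73 (39.2%) were new isoforms that shared an intron with an annotated gene and 25 (13.4%) lay in no gene. The remaining 39 overlapped genes otherwise, 18 over same-strand exons but sharing no intron, 17 inside introns and 4 over exons of the opposite strand. New isoforms were 21.5% of sustained and 24.0% of all transcripts. New genes were 0.777% of sustained and 10.1% of all transcripts, and the latter lies within the Wilson 95% interval of the share in members (9.27 to 19.1%). Members had a median of 3 exons and 1250.5 bases, sustained transcripts 6 exons and 1372 bases, and all transcripts 4 exons and 1247 bases. Of 621 exon junctions in members, 81.2% were annotated, against 97.0% in sustained and 91.7% in all transcripts. The first base lay within 300 bases of an annotated start for 46.8% of members, 78.8% of sustained and 59.5% of all transcripts. The Wilson 95% interval of this share in members was 39.7 to 53.9%, and it covers counting error only. A protein-coding gene was overlapped on the same strand by 122 members (65.6%), against 90.9% of sustained and 74.4% of all transcripts. A pseudogene was overlapped by 13 (6.99%), against 18 of the 386 sustained (4.66%) and 498 of all 22612 transcripts.

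**Figure D3:**
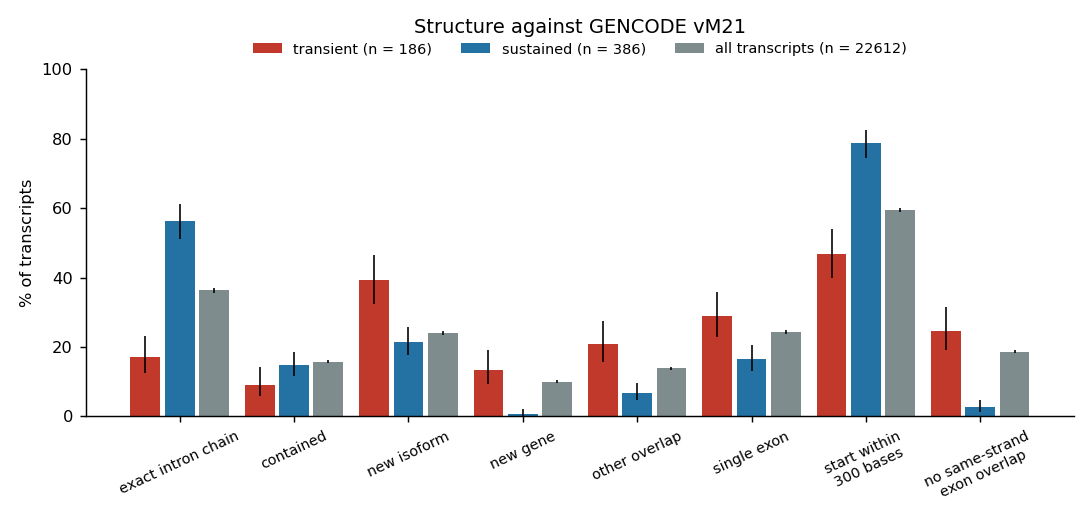
Share of transient (red), sustained (blue) and all merged transcripts (grey) in each class against GENCODE vM21, with a single exon, with a start within 300 bases of an annotated start, and with no exon overlap on the same strand. Bars start at 0 and lines are Wilson 95% intervals. Transient transcripts hold more new isoforms and fewer annotated chains than sustained ones.

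The calls were spread over the structural kinds. From 4-cell to 8-cell 32 of 49 annotated members, 44 of 73 new isoforms, 6 of 18 with exon overlap but no shared intron and 31 of 46 outside same-strand exons were lower, all against the same background of 14.4%. Among the new isoforms, 32 started over 300 bases from an annotated start (median 2108 bases away, up to 22037 bases) and 41 at an annotated start. These had 21 and 23 transcripts called lower.

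Many members were 1 of several transcripts of a gene whose other transcripts had another time course. The 140 members that overlap a gene belonged to 131 genes, and 98 of them had another merged transcript of the gene or locus. For 32 members the other transcripts together had at least 5 TPM in both oocyte libraries, and 28 of these also in both blastocyst libraries. Of the 32, 28 were new isoforms and 1 had an annotated chain. The median share of these 32 in the gene's TPM was 13.2% at 2-cell and 8.12% at 4-cell. It was 61.9% and 60.2% for the 108 members without such transcripts. The 32 were picked for abundant other transcripts. The 108 include every member with no other merged transcript, which makes up all of its gene's TPM by construction. The difference in shares thus follows in part from how the groups were formed and cannot be read as a separate result. The numbers lower at 8-cell were 20 of 32 and 62 of 108.

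Creld2 was the most abundant of these with like replicates. Its other transcripts had 2262 and 1159 TPM in oocytes, 569 and 418 TPM at 2-cell and 159 and 467 TPM in blastocysts, while the member started 6 bases from an annotated start and differed in its splicing, with 7 of 8 junctions annotated. The member of Ak6 started 6095 bases from any annotated start, and it made up 5.91% of the gene at 4-cell, where the other transcripts had 1158 and 954 TPM. Members of Pphln1 (a subunit of the HUSH silencing complex), Polr2f (a subunit shared by the nuclear RNA polymerases) and Ints13 (a subunit of Integrator) took 24.5%, 3.66% and 34.8% of their gene at 2-cell. From 4-cell to 8-cell, Pphln1 fell by 2.82 ± 0.43 (limma adjusted p = 0.0343) and Ints13 by 2.06 ± 0.24 (limma adjusted p = 0.0259). Polr2f had 6.71 and 11.6 TPM at 4-cell and 2.80 and 3.03 TPM at 8-cell and was not called (limma adjusted p = 0.0857).

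Further examples were chosen after their values were seen. For Chek2, a kinase of the DNA damage checkpoint, the member (TCONS_00015552, chr5:110831508-110874136) started 8471 bases from an annotated start and had 7.08 and 14.5 TPM at 2-cell, 59.3 and 58.7 TPM at 4-cell and 8.53 and 8.20 TPM at 8-cell. Its other transcripts had 18.7 and 17.8 TPM at 4-cell and 27.8 and 25.2 TPM at 8-cell, so that the member made up 76.4% of the gene at 4-cell and less than the others at 8-cell. The member fell by 2.68 ± 0.21 (limma adjusted p = 0.0203). For Rbm17, a splicing factor, the member had 84.9 and 80.9 TPM at 4-cell and 8.64 and 7.39 TPM at 8-cell and fell by 3.22 ± 0.21 (limma adjusted p = 0.0203), and the other transcript had 346 and 168 and then 154 and 212 TPM. A member of Brca2, which acts in homologous recombination, started 2111 bases from an annotated start inside the gene and had 9.73 and 60.3 TPM at 2-cell, 44.6 and 50.2 TPM at 4-cell and 9.29 and 7.72 TPM at 8-cell. Both members of Dynll2, a dynein light chain, shared a start 15577 bases from an annotated one. The member of Nmnat1, the nuclear enzyme of NAD synthesis, started 8972 bases from an annotated start and made up 90.8% of the gene at 2-cell.

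**Figure D4:**
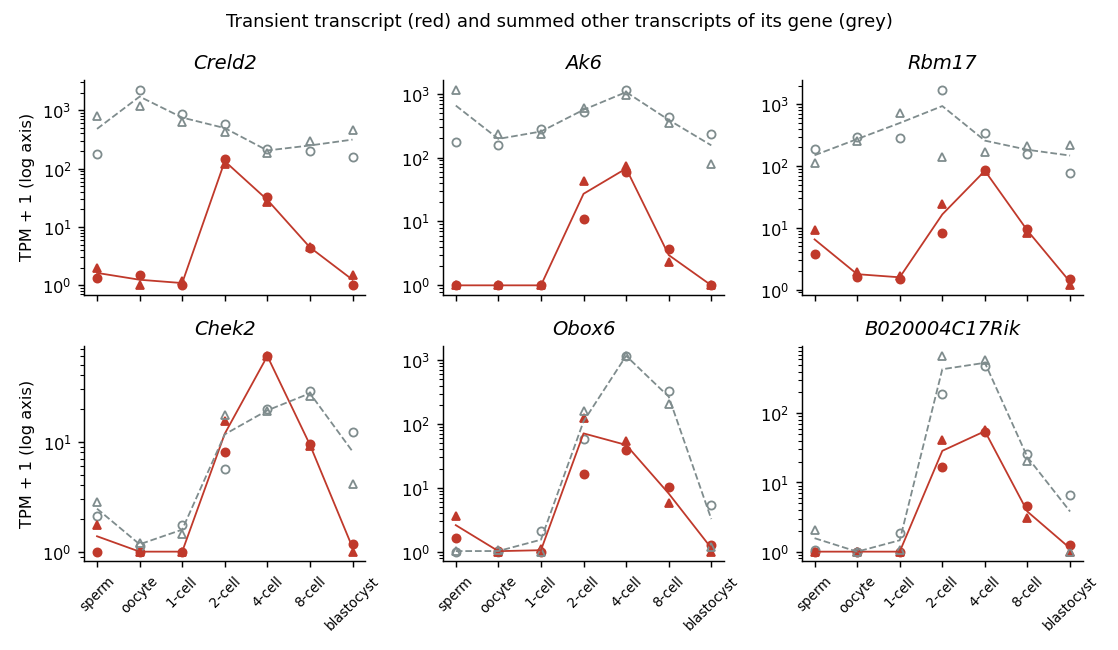
TPM + 1 on a log axis by stage for a transient transcript (red, filled) and for the summed other transcripts of the same gene (grey, open), with circles for replicate 1, triangles for replicate 2 and lines through the means. In Creld2, Ak6 and Rbm17 the other transcripts are present at every stage, in Chek2 the transient transcript exceeds them at 4-cell, and in Obox6 and B020004C17Rik the other transcripts are also low in oocytes and high at 4-cell.

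Outside the exons of same-strand genes lay 46 members, 37 of them with a single exon. Of the sustained transcripts 10 of 386 were of this single-exon kind, and of all transcripts 13.5%, against 19.9% of members. A narrow band of lengths held 10 of the 37, between 2234 and 2385 bases, and this band was chosen after the lengths were seen. Among all 3055 single-exon transcripts outside same-strand exons 87 had a length of 2200 to 2400 bases. The medians of the 10 members were 9.36 and 58.2 TPM at 2-cell, 30.7 and 41.2 TPM at 4-cell and 6.46 and 4.55 TPM at 8-cell. The 10 members ran from 26.6 to 151 TPM in 2-cell replicate 2, from 13.5 to 73.8 TPM in 4-cell replicate 1 and from 0.999 to 18.3 TPM in 8-cell replicate 1. All 10 were higher in 2-cell replicate 2 and all 10 were lower at 8-cell than at 4-cell, with differences from -3.43 to -2.18 on the log2 scale. They lay 6607 to 36681 bases from an annotated start of their strand. Whether they share sequence could not be read here.

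The highest of the 10 at 2-cell was TCONS_00016743 (chr6:52333726-52336012, 2287 bases), with 15.7 and 151 TPM at 2-cell, 43.6 and 50.8 TPM at 4-cell and 7.71 and 5.02 TPM at 8-cell, and it fell by 2.73 ± 0.30 (limma adjusted p = 0.0240). The other 4 most abundant members in no gene were TCONS_00017014 on chromosome 6 (410 bases), TCONS_00010588 on chromosome 19 (928 bases), TCONS_00021810 on the X chromosome (603 bases) and TCONS_00012390 on chromosome 2 (423 bases, 2 exons). They had 14.2 and 147, 124 and 35.6, 10.6 and 142 and 39.2 and 111 TPM at 2-cell. TCONS_00010588 was the one highest in replicate 1, and it was also present in sperm (20.6 and 31.9 TPM). All but TCONS_00021810 (adjusted p = 0.0992 by limma) were called lower at 8-cell.

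A locus inside an intron on chromosome 6 gave 3 spliced members from 1 start (TCONS_00016756 to TCONS_00016758, chr6:54959699-54968703). The first had 110.4 and 53.6 TPM at 2-cell, 84.2 and 103 TPM at 4-cell and 11.1 and 11.1 TPM at 8-cell, and it fell by 2.95 ± 0.22 (limma adjusted p = 0.0203). The other two had 66.2 and 52.5 TPM and 91.4 and 96.8 TPM at 4-cell and 4.04 and 4.60 TPM and 9.93 and 11.3 TPM at 8-cell. They share exons, so they are not independent of each other.

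Members of genes known from later lineages were also chosen after their values were seen. Arg1, the arginase of the urea cycle, had 5.95 and 54.1 TPM at 2-cell, 53.6 and 55.7 TPM at 4-cell and 11.9 and 8.72 TPM at 8-cell, and fell by 2.31 ± 0.25 (limma adjusted p = 0.0240). Cited1, a coactivator that binds CBP and p300, had 57.8 and 19.8 TPM at 2-cell, 22.9 and 21.5 TPM at 4-cell and 3.74 and 5.11 TPM at 8-cell in its transcript TCONS_00022431, which fell by 2.11 ± 0.28 (limma adjusted p = 0.0294), although its other transcripts reached 605 and 750.4 TPM at 4-cell and 449 and 459 TPM at 8-cell. Hand1, a factor of trophoblast giant cells and the heart, had 44.8 and 5.73 TPM at 2-cell, 79.0 and 49.1 TPM at 4-cell and 36.3 and 52.7 TPM at 8-cell and was not called (limma adjusted p = 0.382), and it was under 1 TPM in both blastocyst libraries by the rule. Esx1, a placental homeobox factor on the X chromosome, had 6.44 and 46.1 TPM at 2-cell, 15.2 and 8.36 TPM at 4-cell and 2.22 and 2.78 TPM at 8-cell and was not called (limma adjusted p = 0.0580). Gata1, the erythroid factor, had 12.2 and 9.99 TPM at 2-cell, 26.2 and 28.0 TPM at 4-cell and 4.96 and 8.23 TPM at 8-cell in a new isoform, which fell by 1.92 ± 0.33 (limma adjusted p = 0.0395). These genes do not share a replicate in which they were high at 2-cell.

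Genes by which 2-cell embryos are usually recognised gave members at a share near that of all transcripts. Of 58 genes of 2-cell totipotency, 45 had a merged transcript and 73 transcripts were measured, of which 1 was a member (1.37%, against 0.823% of all merged transcripts), a single-exon Tmem92 transcript. Tmem92 had 13.2 and 75.5 TPM at 2-cell, 27.4 and 26.9 TPM at 4-cell and 6.64 and 6.23 TPM at 8-cell, and fell by 1.92 ± 0.23 (limma adjusted p = 0.0261). The other transcripts missed the rule at one or more stages. At 2-cell 52 had under 5 TPM in at least 1 library, while 45 reached 1 TPM in a blastocyst library and 23 in an oocyte or 1-cell library. The 5 transcripts of Zscan4a, Zscan4c, Zscan4d and Zscan4f, for example, had between 1.20 and 4.65 TPM in 2-cell replicate 1 and between 66.7 and 131 TPM in replicate 2. Kdm4dl (3.56 and 37.2 TPM at 2-cell, 1.01 TPM in a blastocyst library) was no member, nor was any transcript of the locus XLOC_004958. Of the 72 tested transcripts of the list 10 (13.9%) were lower at 8-cell than at 4-cell and 0 higher, against 14.4% and 3.93% of all tested transcripts. The list median was -0.76 beside -0.39 for all tested transcripts. With quantile normalization 5 of the list were lower and 3 higher, against 1165 (5.75%) lower and 1088 higher of all 20250 tested transcripts.

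Of 30 activators of the embryonic genome, 29 had merged transcripts (68), and 1 was a member (1.47%, against 0.823% of all merged transcripts), of the homeobox gene Obox6. The member of Obox6 (TCONS_00018601, chr7:15833222-15839691) had 15.4 and 125 TPM at 2-cell, 37.9 and 54.2 TPM at 4-cell and 9.50 and 4.79 TPM at 8-cell, and fell by 2.57 ± 0.42 (limma adjusted p = 0.0378). It made up 39.2% of the gene at 2-cell and 3.78% at 4-cell, as the other transcripts had 57.7 and 161 TPM and then 1173 and 1172 TPM. Its copy Obox6-ps1 is near-identical, so reads may have been shared between them. Among the 68 transcripts 19 (27.9%, against 14.4% of all tested) were lower at 8-cell, those of Gata4, Klf17 and several Obox genes among them, and 4 (5.88%, against 3.93%) were higher, from Gata6, Sox2 and Zfp42. With quantile normalization 8 were lower and 4 higher, against 1165 (5.75%) lower and 1088 higher of all 20250 tested transcripts.

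Gene families were defined by symbol prefixes, for homeobox genes Obox, Dux, Rhox, Crxos, Gsc, Lhx, Otx and Pou only. These leave out other homeobox genes such as the member Esx1, so their shares do not stand for homeobox genes as a whole. The homeobox prefixes gave 3 of 45 transcripts as members (6.67%, against 0.823% of all), Obox6, Obox3-ps2 and Duxbl2. Obox3-ps2 had 5.73 and 92.4 TPM at 2-cell, 16.9 and 21.4 TPM at 4-cell and 1.41 and 0.976 TPM at 8-cell and fell by 3.20 ± 0.30 (limma adjusted p = 0.0212), and Duxbl2 had 10.4 and 16.8 TPM at 2-cell, 6.58 and 16.7 TPM at 4-cell and 0.605 and 0.301 TPM at 8-cell and fell by 3.00 ± 0.52 (limma adjusted p = 0.0404). All 3 have near-identical copies. Of the 44 tested transcripts of the homeobox prefixes 20 (45.5%, against 14.4% of all tested) were lower at 8-cell and 0 higher (9 and 0 with quantile normalization). The Obox genes are also in the list of activators. Zinc finger genes gave 4 members of 274 transcripts (1.46%), Zfp212, Zfp707 and 2 of Zscan5b, and 46 of 269 tested (17.1%) were lower and 5 higher (12 and 8 with quantile normalization). Ubiquitin pathway genes gave 1 of 432 (0.231%), Trim43b, with 81 of 409 tested (19.8%) lower and 5 higher (36 and 7 with quantile normalization). The PRAME family (24 transcripts) and the histones (45) gave 0 members. Of the PRAME transcripts 7 of 22 tested (31.8%) were lower and 1 higher (4 and 1), and of the histone transcripts 2 of 42 (4.76%) were lower and 8 (19.0%, against 3.93%) higher (1 and 9). The family counts with quantile normalization stand beside 1165 (5.75%) lower and 1088 higher of all 20250 tested transcripts.

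The long-read transcripts of each stage held the members mainly at the 2-cell and 4-cell stages. By the study's methods the long and short reads of a stage came from the same amplified cDNA. The pools are therefore no separate samples from those the rule used. A match was a long-read transcript with the same intron chain or one that holds it or is held in it, or for single exons containment or an overlap of 80% both ways. Such a match was present for 125 members (67.2%) at 2-cell, 92 (49.5%) at 4-cell, 29 (15.6%) at 8-cell and 6 (3.23%) in blastocysts. In oocytes and 1-cell embryos there were 3 and 4. Sustained transcripts were matched in 43.3% at 2-cell, 54.7% at 4-cell, 61.9% at 8-cell and 62.7% in blastocysts. Of all transcripts 29.9% were matched at 2-cell, 29.5% at 4-cell, 30.8% at 8-cell and 30.2% in blastocysts. The merged catalogue was built from these pools, so a match in some stage is given by construction, and the stages are not independent of the transcripts' choice by expression. With the exact chain required, 114 members were matched at 2-cell, 85 at 4-cell, 19 at 8-cell, 1 in blastocysts, 1 in 1-cell embryos and 0 in oocytes. The 2-cell or the 4-cell pool held 167 of the 186 (89.8%, against 43.7% of all transcripts), and 12 members (6.45%, against 16.6%) were matched in sperm alone. Cited1 was one of these, with its long-read transcript in sperm (20.6 and 4.02 TPM) although its mean TPM was highest at 2-cell.

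**Figure D5:**
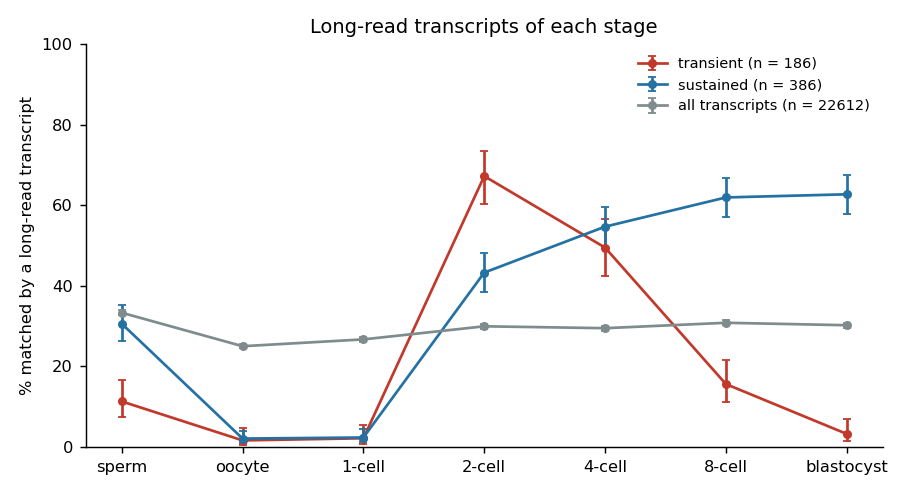
Percentage of transient (red), sustained (blue) and all merged transcripts (grey) matched by a long-read transcript of each stage, with Wilson 95% intervals over transcripts. The transient set peaks at 2-cell with 67.2% and is at 3.23% in the blastocyst.

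The TPM of a member depended on the catalogue in which it was quantified. The libraries were also quantified against the transcripts of their own stage, which re-uses the same reads and so is no independent measure of a level that the rule fixed at 2-cell. The median ratio of the own-stage to the merged TPM was 1.07 over 114 exactly matched members at 2-cell, 0.910 over 85 at 4-cell and 0.912 over 19 at 8-cell. Own-stage values were over 2-fold higher for 20, 8 and 4 members at these stages and over 2-fold lower for 3, 4 and 0. Trim43b, for example, had 1.53 and 1.75 TPM at 4-cell against the 4-cell transcripts and 140 and 62.5 TPM against the merged ones. Exoc3l2 kept its difference between the 2-cell replicates, with 3505 and 40.8 TPM.

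Members were spread over the genome. Chromosome 7 carried 20 of them (10.8%, against 7.08% of all transcripts) and the X chromosome 12 (6.45%, against 3.41%), and 5 were on unplaced contigs. Within 100 kb of another member lay 40 members. Many of these are transcripts of 1 locus, such as those of Dynll2, Gpbp1 and Phkg2. The share over all transcripts was not computed, so the count cannot be read as clustering of members. The groups of 3 were Tmem92, Gm11546 and A430060F13Rik on chromosome 11, H2-Q7, H2-Q10 and an unannotated transcript in the major histocompatibility region of chromosome 17, 2 transcripts of Gm4850 with Gm28645 on chromosome 1, and the intronic locus on chromosome 6. Near-identical copies (at least 95% identity over at least 50% of the longest annotated transcript) existed for the genes of 19 members, whose TPM is therefore uncertain. Without these, 104 of 167 members (62.3%) were lower at 8-cell.

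Members that were not lower at 8-cell on the mean were few. The difference was at or above 0 for 6 of 186, from 0.02 for Ankrd37 to 0.94 for Prr19, and none was called. Prr19 had 7.23 and 13.4 TPM at 2-cell, 4.07 and 2.19 TPM at 4-cell and 7.05 and 6.38 TPM at 8-cell. The heat shock gene Hspa1a had 11.9 and 16.3 TPM at 2-cell, 1.32 and 1.92 TPM at 4-cell and 2.66 and 4.24 TPM at 8-cell, with a near-identical copy in Hspa1b. The highest 8-cell value among the 6 was 9.37 TPM (AC168977.1), and Prr19 and Hspa1a were the 2 in which both 8-cell libraries lay above both 4-cell libraries.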

How the data were processed

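The authors deposited TPM per library, a share of all transcripts, computed by salmon from paired short reads of amplified cDNA against a catalogue of 22612 transcripts. Per their methods, this catalogue was merged from the long-read transcripts of all stages, which had been collapsed and aligned to mm10. The deposited TPM are length-scaled shares, so a rise of abundant transcripts lowers all others, and they hold no read number. The coordinates of the deposited merged annotation are on mm10 and were compared here with GENCODE vM21, whereas the study's methods name vM20. The submitters' processing notes also name GSNAP, STAR and Cufflinks, with no versions.

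Members were selected by the TPM rule given in the text. The members and lists were chosen with earlier results of these data known. The contrast of 8-cell with 4-cell was tested with limma 3.58.1 in R 4.3.3 on log2(TPM + 1) over 4 libraries, for 20250 transcripts with at least 1 TPM in at least 2 of 12 libraries from oocyte to blastocyst, with Benjamini-Hochberg adjustment over all of them and a threshold of 0.05. A log2 difference on this scale understates the change of low transcripts. Tables used Python 3.11.15 and pandas 2.3.3, and near-identical copies were found with blastn 2.17.0. On simulated data for this contrast, 0 of 200 transcripts changed by 1 on the log2 scale were called, 0 of 200 changed by 2, and 176 of 200 changed by 4, with 8 false calls. Only these 200 were changed in the simulation, whereas 14.4% of tested transcripts were called lower and 3.93% higher in the data. The adjustment was therefore stricter in the simulation, and its rates do not carry over to the calls reported here.

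Transcripts were named by rule: the 8 highest at 2-cell, the 6 largest called falls, members of the lists, the 5 highest at 2-cell in genes with another transcript in oocytes, the 5 highest in no gene, and those next to the thresholds. Others are said to have been chosen after their values were seen. The 8-cell replicates are numbered as in their titles, which is the reverse of the numbering in the deposited file names. Same-numbered 4-cell and 8-cell libraries did not deviate together (r = -0.10 over 20250 transcripts), and no block was used. Alternatives were another pseudocount, filter, scaling, set of libraries and replicate block, leaving out each library, and other thresholds for membership.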

Additional observations from a re-analysis of the deposited data

Results flagged for a closer look

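Sperm libraries lie outside the rule and the contrast, and 14 of the 186 transient transcripts had at least 5 TPM in both of them (7.53%, against 45.9% of the sustained and 32.9% of all transcripts). The highest sperm means were 701 TPM for Fam50b (258 and 1144 TPM), 146 TPM for Lat2, 109 TPM for Hspa1a, 106 TPM for Timp2 and 90.1 TPM for Calhm6. All 5 were under 1 TPM in both oocyte and both 1-cell libraries by the rule.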

How the results depend on the processing

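The sign of the median member held in every setting tried, and no setting called a member higher at 8-cell, but the number called lower moved. The share of all tested transcripts called lower moved too and stands in brackets. The member number was 113 as reported (14.4%), 94 with a pseudocount of 0.1 (11.9%) and 86 with no filter (9.43%). It was 134 of 178 with the filter on the 4 libraries (22.6%) and 58 with quantile normalization (5.75%). In a fit on 12 libraries it was 51 (2.44%), of which 50 were among the 113. That fit also takes its spread from the oocyte, 1-cell and blastocyst stages. Members were chosen to vary little there, so its count is not free of the rule. The member median was -2.51 with the pseudocount of 0.1 and -1.44 with quantile normalization. Quantile normalization gave a median of 0.13 for sustained transcripts, a change of sign that went with the shift of all transcripts. Relative to the median of all transcripts, sustained transcripts lay 0.05 higher as reported and 0.13 higher with quantile normalization. Sustained transcripts lower and higher numbered 62 and 37 with the filter on the 4 libraries, 23 and 15 with no filter, 6 and 30 with quantile normalization, and 0 and 5 in the fit on 12 libraries. Leaving out 1 library of 4-cell or 8-cell took away most calls, of members, of sustained transcripts and of all tested transcripts. The lone library is assumed to vary like the other stage there, so no counts are given. The member median was -2.06 and -2.01 without 4-cell replicate 1 or 2 and -2.10 and -1.96 without 8-cell replicate 1 or 2. That of all tested transcripts was -0.37, -0.42, -0.40 and -0.37 in the same order. Gm11238 ran from -0.65 to 0.43 over the fits that left out 1 library, with 0.38 without 8-cell replicate 1, and was 0.45 with quantile normalization. The causes were not tested.

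With the replicate block, that is the pairing of same-numbered libraries, limma called 0 members lower and 0 sustained transcripts in either direction. The numbers are not stated to mark a shared batch. A crossed pairing, added after seeing the data, also called 0 members and 0 sustained transcripts.

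The rule gave 569 members on 2-cell replicate 2 alone, 236 on replicate 1 alone, 86 with under 0.5 TPM at the absent stages, 83 with at least 10 TPM at 2-cell and 92 where the summed TPM of the locus also met it. Without members whose 2-cell replicates differed over 5-fold, added after seeing the data, 81 of 136 (59.6%) were lower at 8-cell. Longer or shifted start windows and the search at transcript ends were not run, since they need genome sequence not used here.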
